A study of Mus musculus with 8 samples.

Results

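The 10 genes described here are drivers of the passage from G1 to S phase: the D cyclins Ccnd1, Ccnd2 and Ccnd3, the E cyclins Ccne1 and Ccne2, the kinases Cdk4, Cdk6 and Cdk2, and the transcription factors E2f1 and Myc. They were chosen by name, with every probe set that the platform's annotation assigns to them. This gave 28 of the 34945 probe sets that have 1 gene, for 10 of 18193 genes.

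Cells leave G1 and start DNA synthesis when D cyclins, bound to the kinases CDK4 and CDK6, begin to phosphorylate the retinoblastoma protein. This frees E2F transcription factors, which switch on the E cyclins, and cyclin E with CDK2 completes the step. Growth factor receptors act on the pathway mainly through cyclin D1 and MYC, and cyclin D1 is a known marker of hepatocytes that enter the cycle in regenerating or mitogen-treated liver.

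Liver RNA was measured on 8 Affymetrix mouse arrays, 1 for each of 2 arms on days 0, 1, 2 and 5 after TCPOBOP, a ligand that activates the receptor CAR and makes mouse hepatocytes divide without injury. All mice are labelled Metff/ff:ERCre+/+, that is, they carried a floxed Met gene and a Cre that tamoxifen switches on; the promoter that drives the Cre is not stated. The MET KO + EGFRi mice received 5 tamoxifen injections (100 µl at 10 mg/ml) and, starting 1 day ahead of TCPOBOP, a diet with the EGFR inhibitor canertinib aimed at 80 mg/kg per day. Control mice were littermates that received corn oil in place of tamoxifen and, as far as the labels say, no canertinib. Both arms were given TCPOBOP by gavage at 3 mg/kg, at least 5 days after the last tamoxifen dose in the knockout arm. The labels do not say whether the day 0 mice had received it, nor the age of the mice or how many livers each pool held.

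Each array read RNA pooled from the livers of 1 group, so no group had a replicate. Met itself, the gene to be deleted, was not lower on its stronger probe set, 1434447_at, which read 1444, 926, 1336 and 1149 in control on days 0, 1, 2 and 5, against 1502, 1049, 2034 and 1358 in the arm labelled MET KO + EGFRi. Its other probe set, 1422990_at, read 786, 561, 359 and 531, against 640, 532, 650 and 389. The labels do not name the deleted exon, and a probe set outside it would not check the deletion, so the arm is named here as it is labelled and the loss of Met is not shown by these arrays. Precision is limited by there being only 8 arrays. In whole liver RNA, fewer cells of a type and less RNA per cell cannot be told apart. All 6 hepatocyte markers read were well measured, with summed signals of 200034 to 339169 in control, against 210595 to 321935 in the MET KO + EGFRi arm. Their median log2 differences were 0.06, -0.04, 0.64 and -0.09 on days 0, 1, 2 and 5, and at day 2 all 6 were higher in MET KO + EGFRi. Among markers of other cells, 2 lists were shifted upward in the MET KO + EGFRi arm. Their median log2 differences were 0.57 (Kupffer cell and macrophage) and 0.27 (monocyte and neutrophil). Those of the endothelial, lymphocyte and cholangiocyte lists were 0.05, -0.04 and 0.03. The 11 Kupffer cell and macrophage genes summed to 16355 to 36214 in control, against 29484 to 51964 in the MET KO + EGFRi arm, and all 11 had a higher mean in the latter. Of them 1, Cd5l, was called (limma, adjusted p = 0.0468). The 6 measured monocyte and neutrophil genes, of 10 listed, summed to 2960 to 3192 and 5839 to 6227, with 5 of 6 higher. In that list the neutrophil gene S100a8 read 420 to 680 in control and 2056 to 2468 in the other arm, and S100a9 read 321 to 487 and 1317 to 1564. Both were called between the arms (limma, adjusted p = 0.0022 and 0.0051), and they made up most of the gap between the sums. The others of that list, Ccr2, Elane, Csf3r and Mpo, had log2 differences of -0.05, 0.01, 0.15 and 0.40, none called. The 7 stellate and fibroblast genes measured of 9 summed to 9860 to 10713 and 12350 to 16165, with 3 of 7 higher and a list median of -0.0019 on the log2 scale. The matrix gene Dcn, at 3904 to 4370 and 6305 to 9520, was the 1 gene of that list called (limma, adjusted p = 0.0298). The 8 endothelial genes measured of 9 summed to 6441 to 9292 and 7799 to 10797 (5 of 8 higher). By day they were not level: 7 of 8 were lower in MET KO + EGFRi at day 0 (median -0.25) and all 8 higher at day 2 (0.51). The 4 lymphocyte genes measured of 10 summed to 1961 to 2565 and 2183 to 2583 (2 of 4 higher), and the T cell gene Cd3e stayed below the filter. The 3 cholangiocyte genes measured of 7 summed to 1992 to 2759 and 2308 to 2509 (2 of 3 higher), with Krt19 and Krt7 below the filter. Their part in the differences between arms described here was not tested. The ratio of 3' to 5' actin probe sets, a sign of RNA quality, ran from 1.57 to 2.36 and was highest in MET KO + EGFRi at day 5.

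Cyclin D1 was the member that stood furthest below control in MET KO + EGFRi livers, and the gap was widest at day 0. The strongest Ccnd1 probe set, 1448698_at, had signals of 4553, 6318, 6381 and 5647 in control on days 0, 1, 2 and 5, and of 1232, 3172, 3571 and 4264 in MET KO + EGFRi. All 4 MET KO + EGFRi values lay below all 4 control values, the highest of them (day 5) being below the lowest control value (day 0). Control signals were 3.70, 1.99, 1.79 and 1.32 times those of MET KO + EGFRi on the successive days, so the gap narrowed over time.

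The other Ccnd1 probe sets repeated the order at days 0, 1 and 2 and parted at day 5. Probe set 1417420_at had 1707, 2970, 3143 and 1925 in control, against 513, 1379, 1221 and 1732 in the MET KO + EGFRi arm. Its control signals were 3.33, 2.15, 2.57 and 1.11 times those of the other arm. The weakest, 1417419_at, had 607, 802, 677 and 494 in control, against 182, 522, 472 and 704 in the MET KO + EGFRi arm. On that probe set the control signal was 3.33 times the other at day 0 but only 0.70 times at day 5. A lower cyclin D1 signal was thus read by 3 of 3 probe sets on days 0, 1 and 2, and by 2 of 3 at day 5.

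**Figure D1:**
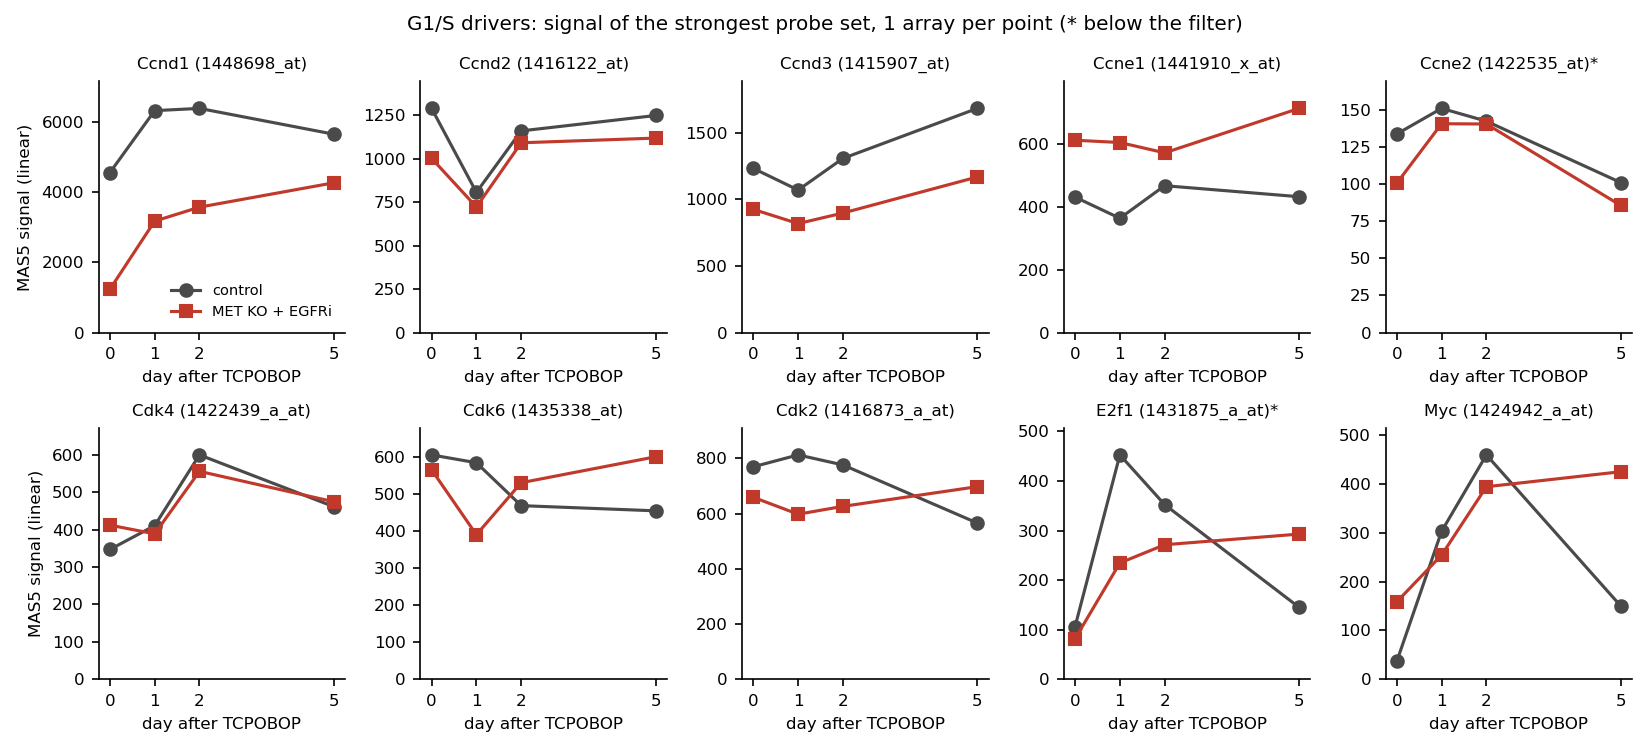
MAS5 signal (linear, vertical axis from 0) of each of the 10 genes on its strongest probe set, by day after TCPOBOP. Grey circles are control and red squares MET KO + EGFRi, with 1 array of pooled RNA per point and no error bars; an asterisk marks the 2 genes below the filter. Ccnd1 is lower in MET KO + EGFRi on every day (1232 against 4553 at day 0), Ccne1 on this probe set is higher on every day, and Myc and E2f1 are highest in control on day 1 or 2 and higher in MET KO + EGFRi at day 5.

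The remaining D cyclins differed less. Cyclin D3, which shares the kinase partners of cyclin D1, had 1232, 1070, 1307 and 1682 in control, against 925, 818, 897 and 1168 in the MET KO + EGFRi arm on probe set 1415907_at. It was lower each day by a similar amount, with log2 differences from -0.36 to -0.51, but the groups overlapped because the MET KO + EGFRi value of day 5 exceeded the control value of day 1. Its weak probe sets, 1444323_at and 1438805_at, did not pass the filter, and the second was the higher one in MET KO + EGFRi each day, at signals of 12.1 to 119.

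Cyclin D2 had 1289, 806, 1160 and 1248 in control, against 1002, 722, 1091 and 1118 in the MET KO + EGFRi arm on probe set 1416122_at. In both arms its lowest value was at day 1, and the arms differed by at most 0.34 on the log2 scale. Of the 6 other Ccnd2 probe sets, 1434745_at and 1430127_a_at passed the filter. The latter had 585, 114, 517 and 544 in control against 415, 353, 426 and 501. Its day 1 value in control was thus the single low one, and there MET KO + EGFRi was 3.09 times higher, the reverse of the strongest probe set.

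For cyclin E1 the 2 probe sets disagreed, so no direction can be given for the gene. The stronger one, 1441910_x_at, had 431, 363, 467 and 432 in control, against 611, 604, 571 and 713 in the MET KO + EGFRi arm, with all values of the latter above all of control. Its name ends in _x_at, a class that can bind other RNAs, and the annotation gives it no accession. The weaker one, 1416492_at, is tied to a RefSeq transcript and fell short of the filter. It had 167, 180, 296 and 327 in control, against 168, 199, 144 and 180 in the MET KO + EGFRi arm. Here control was 2.06 times higher at day 2 and 1.82 times higher at day 5, while days 0 and 1 were nearly equal. In a fit across all 34945 probe sets with no filter, limma gave mean log2 differences of 0.49 (adjusted p = 0.39) and -0.33 (adjusted p = 0.731) for the 2 probe sets.

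Cyclin E2 was weak in all arrays, with 134, 151, 142 and 101 in control, against 101, 141, 140 and 85.5 in the MET KO + EGFRi arm, below the filter. The groups overlapped, and the widest log2 difference between the arms, at day 0, was -0.25.

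Cdk4, the main kinase partner of the D cyclins, had 347, 411, 600 and 462 in control, against 412, 389, 556 and 475 in the MET KO + EGFRi arm on probe set 1422439_a_at. Both arms had their highest value at day 2, and their ranges overlapped almost wholly. Probe set 1422440_at showed no such peak in control, with 337, 335, 347 and 382, and had 170 in MET KO + EGFRi at day 0 against 377, 442 and 478 later. The third, 1422441_x_at, had 338, 207, 381 and 291 and 264, 397, 285 and 399. All 3 Cdk4 probe sets were higher in MET KO + EGFRi at day 5, and they disagreed in direction on the other days.

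Cdk6, whose protein acts with the same cyclins and is best known from blood cells, had 606, 585, 469 and 455 in control and 566, 390, 531 and 601 on probe set 1435338_at. The arms crossed between days 1 and 2. Probe set 1455287_at had 534, 369, 399 and 268 in control, against 252, 348, 406 and 502 in the MET KO + EGFRi arm. On it the control was 2.12 times higher at day 0 and 0.53 times as high at day 5. The third, 1460291_at, had 364, 323, 266 and 337 against 237, 407, 391 and 350. All 3 Cdk6 probe sets were lower in MET KO + EGFRi at day 0 and higher at day 5.

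Cdk2, the partner of E cyclins, had 770, 813, 777 and 566 in control, against 659, 598, 626 and 698 in the MET KO + EGFRi arm on probe set 1416873_a_at. It was lower on days 0, 1 and 2 and higher at day 5, by a log2 difference of at most 0.40. Its other probe set, 1447617_at, read 1.6 to 17.8 in all arrays and carries no information.

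Promoter letters were read for the members that RefSeq's table holds, for letters that MYC and E2F factors are known to bind. The table has 7 windows of 300 bases, 250 before and 50 after a start, for 6 of the members (Ccnd3, Ccne1, Cdk4, Cdk6, Cdk2 and E2f1), in build GRCm38.p6. The E-box CACGTG, the letters that MYC with MAX is known to bind, occurs 4 times before the Cdk4 start, at 172, 118, 98 and 11 bases. It occurs at least once in 7.15 percent of all 32851 windows and 4 or more times in 0.0244 percent. The stretch is shown for its 4 E-boxes, in capitals, chr10:127063351-127063534, plus strand.

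Cdk4: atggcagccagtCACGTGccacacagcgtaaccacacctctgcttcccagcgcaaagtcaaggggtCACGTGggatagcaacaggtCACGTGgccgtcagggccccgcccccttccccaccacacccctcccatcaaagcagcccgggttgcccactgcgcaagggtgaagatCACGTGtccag

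Cdk6 holds 1 E-box, 220 bases before the start. The E2F letters TTTCCCGC, searched on both strands, occur in 1.07 percent of windows, and among the members in that of Cdk2, shown here on its own strand with the reverse complement of those letters in capitals (chr10:128705172-128705203, minus strand).

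Cdk2: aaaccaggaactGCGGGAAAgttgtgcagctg

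The letters TTTGGCGC and TTTGGCGG, found in 0.514 and 0.56 percent of windows, occur in none of the member windows. These matches describe letters and are not evidence of binding. Over the 8 arrays, which share the same pools, the log2 values of the 3 Cdk4 probe sets had a Pearson's r with Myc of 0.77 (1422439_a_at), 0.40 (1422440_at) and 0.14 (1422441_x_at).

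E2f1, the transcription factor freed when the retinoblastoma protein is phosphorylated, was highest at day 1 in control and at day 5 in MET KO + EGFRi. Its strongest probe set, 1431875_a_at, just below the filter, had 106, 453, 352 and 145 in control, against 81.4, 235, 271 and 293 in the MET KO + EGFRi arm. Control was 1.93 times higher at day 1, and MET KO + EGFRi was 2.02 times higher at day 5. The control value of 145 behind the second ratio is weak and lies under the filter signal. On the log2 scale used for the fits the day 5 difference was 0.75, short of 2-fold. The second probe set, 1417878_at, had 20.9, 55.8, 98.6 and 32.3 and 21.9, 58.4, 42.6 and 59.4, again with MET KO + EGFRi higher at day 5. The third, 1447840_x_at, stayed between 18.7 and 41 in all arrays.

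Myc, which drives growth and is an early target of growth factor signals, had a single probe set, 1424942_a_at. Its signals were 36.4, 303, 460 and 150 in control, against 159, 254, 395 and 425 in the MET KO + EGFRi arm. In control it went from the lowest of the 8 values at day 0 to the highest at day 2 and then came down, while in MET KO + EGFRi the value at day 5 was the highest of that arm. MET KO + EGFRi was higher at day 0 and day 5, and 0.84 and 0.86 times control at days 1 and 2. The control value at day 0 lies under the pseudocount of 71 that was added before taking logs, and the values of 159 and 150 lie under the filter signal, so no ratio is given for those days. On the log2 scale with the pseudocount the differences were 1.10 at day 0 and 1.17 at day 5. The mean log2 value of Myc, 8.27, is just above the filter, and its arrays of higher signal bring it there.

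**Figure D2:**
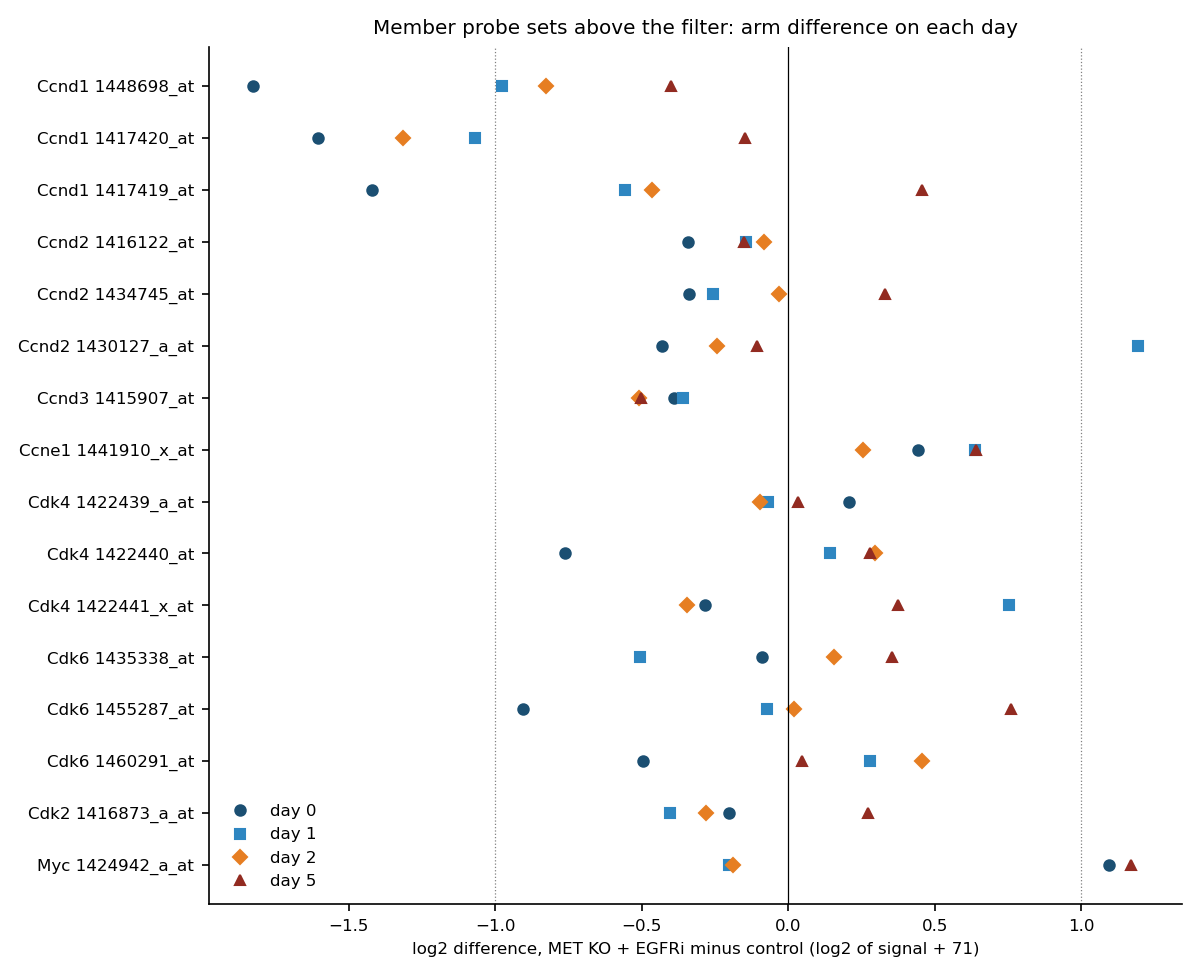
Log2 difference between the arms (MET KO + EGFRi minus control, log2 of signal + 71, horizontal axis) on each day, for the 16 member probe sets above the filter, 1 row each. Marker shape and colour give the day, and dotted lines mark 2-fold. Ccnd1 on 1448698_at runs from -1.83 at day 0 to -0.40 at day 5, probe sets of 1 gene often disagree (Ccnd2, Cdk4), and Myc is past 2-fold at days 0 and 5 only.

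Averaged over the days, 0 of the 8 members that passed the filter were called between the arms, and none of the 10 under any of the other settings tried. The filter kept genes with a mean log2 value no lower than the probe set median, a signal of about 230.5, and left 12112 genes. E2f1 and Ccne2 missed it. limma fitted arm and day as additive terms across the 12112 genes and called 0.578 percent of them at a Benjamini-Hochberg adjusted p under 0.05. Its p-values rest on how much the difference between the arms varied from day to day, not on the spread between mice. The narrowing of the Ccnd1 gap thus counts as spread in this fit. At an unadjusted p under 0.05 it had 3 of the 8 members and 1466 of all genes.

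Those 3 were Ccnd1, Ccnd3 and Ccne1. Ccnd1 averaged -1.01 on the log2 scale, with a standard error of 0.22 (limma, adjusted p = 0.128), from 0.0863 to 0.289 over 12 other settings and from 0.104 to 0.476 when 1 array was left out. Only 0.504 percent of the genes ranked as low or lower by their log2 difference. The mean of its 3 probe sets gave -0.85, and its weakest probe set, 1417419_at, gave -0.50 in the fit across probe sets. Ccnd3 had -0.44 with a standard error of 0.12 (adjusted p = 0.21), from 0.148 to 0.925 over the other settings; the mean of its 3 probe sets gave -0.05. Ccne1 had 0.49 with a standard error of 0.14 (adjusted p = 0.227, from 0.22 to 0.879) on the probe set that disagrees with the other, and the mean of both probe sets gave 0.08. Myc had 0.47 with a standard error of 0.30 (adjusted p = 0.594), and from 0.24 to 0.69 when 1 array was left out. The other members had differences of -0.18 for Ccnd2, -0.15 for Cdk2, -0.02 for Cdk6 and 0.02 for Cdk4. In the fit without the filter, over 18193 genes, E2f1 had -0.14 and Ccne2 -0.12 (limma, adjusted p = 0.909 and 0.86). The median of the 8 was -0.09, beside 0.0021 for all genes.

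Counted by sign alone, all 3 D cyclins, on their strongest probe sets, lay below control on each of the 4 days, as did 10.3 percent of all genes, and Ccne1 lay above on each, as did 9.92 percent. On its strongest probe set, Ccnd1 was the 1 member with all MET KO + EGFRi arrays below all control arrays, which held for 2.75 percent of genes. On its probe sets 1417420_at and 1417419_at the groups overlapped. Ccne1, on the stronger of its disagreeing probe sets, was the 1 member with all arrays above, which held for 3.5 percent. When either array of day 0, where the arms were furthest apart, was left out, the Ccnd1 difference was -0.73 (limma, adjusted p = 0.233 and 0.23). Both fits compare the arms on the same remaining days and are not separate checks.

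On single days, with 1 array per arm and no test, the members at least 2-fold apart were Ccnd1 (lower) and Myc (higher) at day 0, none at day 1, none at day 2 and Myc (higher) at day 5. These were 2, 0, 0 and 1 of 8 members. Over all genes, 4.82, 5.52, 4.91 and 4.41 percent were 2-fold apart in either direction on days 0, 1, 2 and 5. With the median of all values as pseudocount Myc was no longer 2-fold apart at either day. At day 1 the strongest Ccnd1 probe set was just inside 2-fold, with a log2 difference of -0.98.

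On the strongest probe set of cyclin D1 and on that of Myc, the values after TCPOBOP lay above day 0 in both arms. On the weakest Ccnd1 probe set, control at day 5 lay below its day 0. On its strongest, Ccnd1 had log2 changes of 0.47, 0.48 and 0.31 from day 0 in control on days 1, 2 and 5, and of 1.32, 1.48 and 1.73 in MET KO + EGFRi. As ratios of signals these were 1.39, 1.40 and 1.24 in control, against 2.58, 2.90 and 3.46 in the MET KO + EGFRi arm. The larger change in MET KO + EGFRi started from the lower value, and its day 5 signal of 4264 came to just below the 4553 of control at day 0. Myc had log2 changes of 1.80, 2.31 and 1.04 in control, against of 0.50, 1.02 and 1.11 in the MET KO + EGFRi arm, so here control had the larger change on days 1 and 2. E2f1 had 1.57, 1.26 and 0.29 in control, against 1.00, 1.17 and 1.26 in the MET KO + EGFRi arm.

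**Figure D3:**
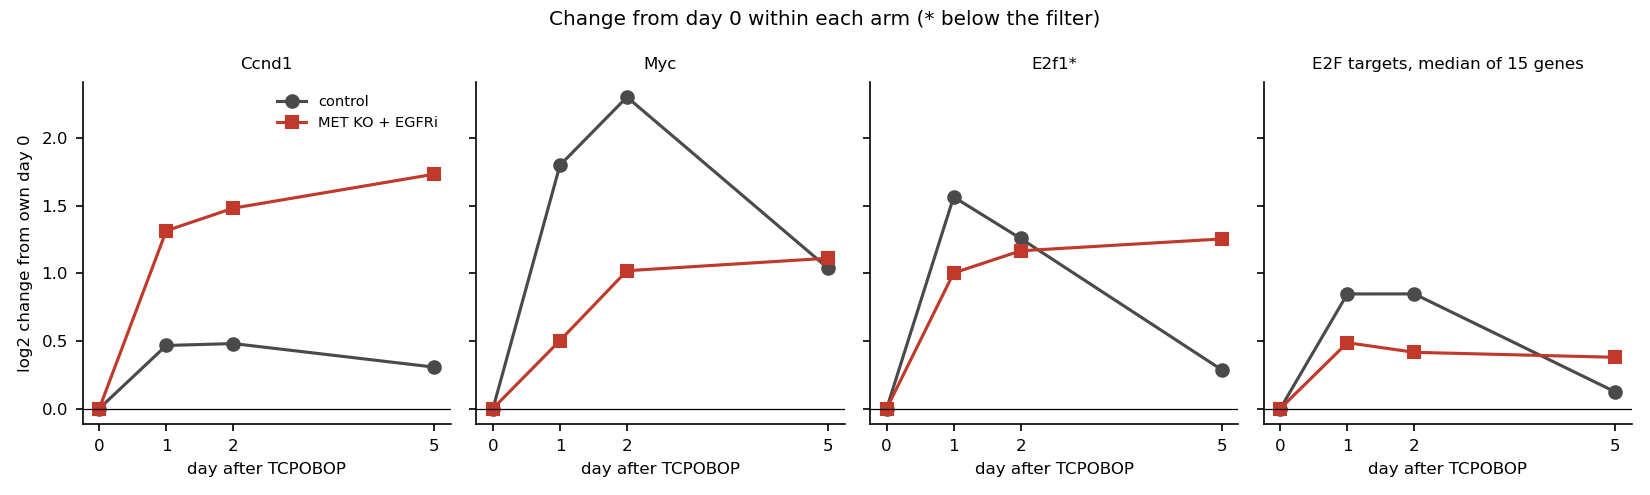
Log2 change from the same arm's day 0 (vertical axis) by day after TCPOBOP, for Ccnd1, Myc, E2f1 (below the filter) and the median of 15 E2F target genes. Grey circles are control and red squares MET KO + EGFRi, 1 array per point, and all changes of an arm share its day 0 array. The Ccnd1 change is larger in MET KO + EGFRi (1.73 against 0.31 at day 5), whereas Myc, E2f1 and the E2F targets are highest in control on day 1 or 2 and lower there by day 5.

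Ccnd1 and Myc were the 2 of 8 members above day 0 on all 3 later days in both arms, as were 9.62 percent of genes. At least 2-fold from day 0 in control were 1 member (Myc) on each of days 1, 2 and 5, beside 4.85, 5.32 and 5.39 percent of all genes in either direction. In MET KO + EGFRi they were 1 at day 1 (Ccnd1) and 2 at days 2 and 5 (Ccnd1 and Myc), beside 3.36, 4.22 and 5.52 percent. The 3 changes of an arm share the day 0 array and are not independent.

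The contrast of days 1, 2 and 5 with day 0, averaged over the arms, called 0 of 8 members and 0.487 percent of all genes in limma. At an unadjusted p under 0.05 there were 2 of 8 members, Myc and Ccnd1, and 1221 genes. Myc had a log2 change of 1.30 with a standard error of 0.35 (limma, adjusted p = 0.247, from 0.234 to 0.464 over 10 other settings). Ccnd1 had 0.96 with a standard error of 0.25 (adjusted p = 0.233, from 0.16 to 0.434 over 12). The Ccnd1 change was 0.42 when the day 0 array of MET KO + EGFRi was left out and 1.51 when that of control was. E2f1, in the fit without the filter, had 1.09 with a standard error of 0.32 (adjusted p = 0.414). Cdk4 had 0.29 and Ccnd3 0.07, while Ccnd2 had -0.17, Cdk6 -0.20 and Cdk2 -0.07, all with limma adjusted p above that of Ccnd1. The median of the 8 was 0.04, beside -0.02 for all genes.

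Whether the change from day 0 differed between the arms was asked with an interaction term, which left 2 residual degrees of freedom. limma called 0 of 8 members and 0 percent of all genes, with 1 member (Ccnd1) and 543 genes at an unadjusted p under 0.05. On simulated data this fit called 2 percent of 2-fold and 55.2 percent of 4-fold differences. The lack of calls therefore says little about differences of that size. For Ccnd1 the change was 1.09 larger on the log2 scale in MET KO + EGFRi, with a standard error of 0.34 (adjusted p = 0.999). For Myc it was smaller, at -0.84 with a standard error of 0.67 (adjusted p = 0.999).

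Genes of S phase entry that E2F factors are known to switch on were mostly lower in MET KO + EGFRi at days 1 and 2 and mostly higher at day 5. Of 22 listed genes 15 were measured. They were lower in MET KO + EGFRi for 8, 13 and 14 of 15 at days 0, 1 and 2, and higher for 12 of 15 at day 5. The median log2 differences were -0.06, -0.44, -0.45 and 0.40, beside -0.03, 0.0087, 0.02 and -0.01 for all genes. Rrm2, a subunit of ribonucleotide reductase, had 551, 3684, 3857 and 905 in control, against 603, 1967, 900 and 2613 in the MET KO + EGFRi arm. Gmnn, which blocks re-replication of DNA, had 361, 1034, 946 and 332 and 164, 328, 550 and 698. Mcm2, part of the replicative helicase, had 195, 1261, 1094 and 593 and 184, 630, 304 and 545. Each of these 3 was highest in control on day 1 or 2. Rrm2 and Gmnn were higher in MET KO + EGFRi at day 5, and Mcm2 was not. The day 5 array of MET KO + EGFRi is also the one with the actin ratio of 2.36, and the part of RNA quality in the day 5 values was not tested.

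None of the 15 was called between the arms or over time. The median change after TCPOBOP, averaged over the arms, was 0.53 (13 of 15 positive), with Rrm2 at 1.67, Mcm2 at 1.51 and Gmnn at 1.06 (limma, adjusted p = 0.355, 0.111 and 0.425). When the day 2 array of MET KO + EGFRi was left out, Mcm2 was called (log2 change 1.72, limma adjusted p = 0.0476). That was 1 of 8 fits that left out 1 array, and Mcm2 was called in 0 of 11 other settings (limma, adjusted p from 0.104 to 0.312). Its day 0 values of 195 and 184 lie under the filter signal, and the change ran from 1.11 to 1.81 over those 11 settings.

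Brakes on the kinases were read next. The CDK inhibitor list had 5 of 7 genes measured and 0 called, with a median difference between the arms of 0.20. Its median change after TCPOBOP was 0.31, and -0.18 with no filter. The difference between the arms was 0.51, 0.17, -0.27 and 0.13 on days 0, 1, 2 and 5. Cdkn1c, encoding p57, had 236, 117, 231 and 62.3 in control, against 292, 345, 531 and 273 in the MET KO + EGFRi arm, higher each day (log2 difference 0.94, limma adjusted p = 0.188). The control values of 117 and 62.3 lie under the filter signal, the latter also under the pseudocount of 71. Its higher signals in MET KO + EGFRi bring it past the filter, which it missed without a pseudocount and at the upper quartile. With the median of all values as pseudocount the difference was 0.59. Cdkn1b, encoding p27, had 136, 227, 438 and 278 and 403, 384, 258 and 353. Cdkn2c, encoding the CDK4 and CDK6 inhibitor p18, had 1146, 1634, 1750 and 2009 and 933, 1230, 1438 and 1709. It was higher on each later day than at day 0 in both arms (log2 change 0.60, limma adjusted p = 0.163). Cdkn2d, of the same family, had a log2 change of 0.53.

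Among 18 genes of CDK activation and cyclin turnover, all measured, 0 were called, with a median difference between the arms of -0.04. Fbxo31, a ubiquitin ligase adaptor known to target cyclin D1, had 1568, 722, 969 and 996 in control, against 3192, 2303, 1664 and 1592 in the MET KO + EGFRi arm. Its lowest value in MET KO + EGFRi lay just above its highest in control, so the groups did not overlap (log2 difference 0.99, standard error 0.18, limma adjusted p = 0.0719). With the filter at the upper quartile it was called (adjusted p = 0.0401), and with the mean of probe sets as well (adjusted p = 0.0306), so in 2 of 12 other settings, with adjusted p up to 0.183. It was called in 0 of 8 fits that left out 1 array (adjusted p from 0.102 to 0.289). The kinase Wee1 had a log2 difference of -1.17 and the cyclin E ligase subunit Fbxw7 of -0.53, neither called. Fbxo4 and the CDK subunit Cks2 had changes after TCPOBOP of 0.61 and 0.49, and Fbxo31 of -0.78.

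The pocket proteins and E2F family had 14 of 16 genes measured, 0 called, and a median difference of 0.03. E2f8, which represses E2F targets late in the cycle, had 79.4, 631, 445 and 394 in control, against 318, 379, 475 and 606 in the MET KO + EGFRi arm, lowest at day 0 in both arms. Its change after TCPOBOP was 1.19 (limma, adjusted p = 0.297), 0.50 when the control array of day 0 was left out and 1.88 when the other day 0 array was. The control value of 79.4 lies near the pseudocount of 71, and the change ran from 0.78 to 1.59 over 10 other settings. E2f6 had 0.50 and Lin52 -0.62. E2f2 and E2f3, activators like E2f1, had differences between the arms of -0.67 and -0.36, and Lin37, of the complex that represses cell cycle genes in resting cells, of -0.58 (limma, adjusted p = 0.211).

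**Figure D4:**
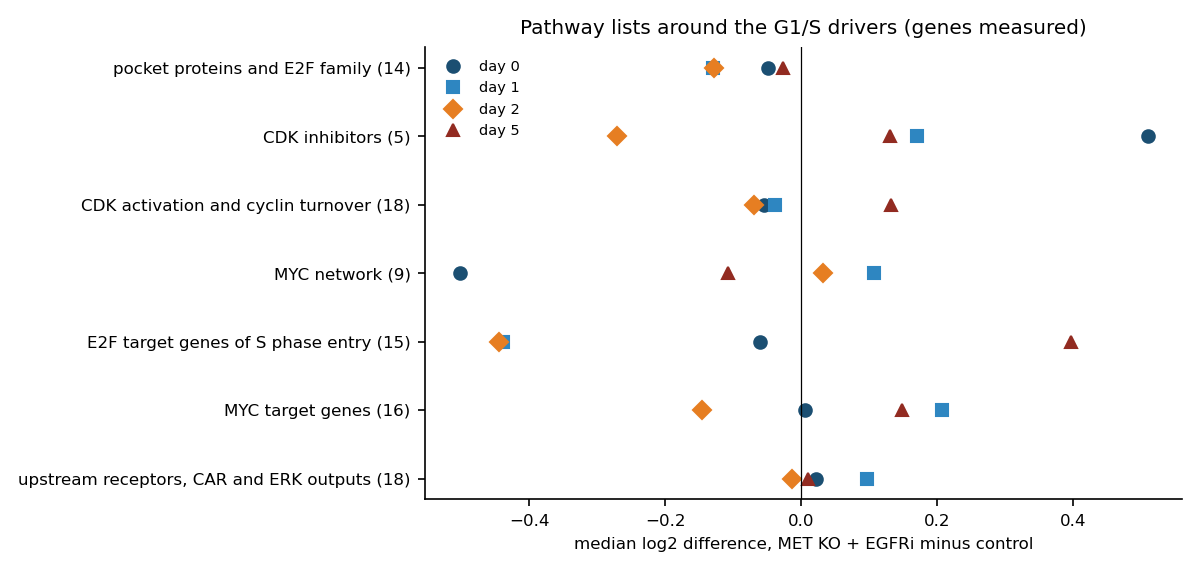
Median log2 difference between the arms (MET KO + EGFRi minus control, horizontal axis) on each day for 7 gene lists around the members, with the number of genes measured in brackets. Marker shape and colour give the day, 1 array per arm and day. The E2F targets lie near -0.44 on days 1 and 2 and at 0.40 on day 5, and the MYC network is lowest at day 0 (-0.50).

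The MYC network, the partners and antagonists of MYC, had 9 of 12 genes measured, 0 called, and a median difference of -0.10, with -0.50 at day 0. Mxd4, an antagonist that competes for the partner MAX, had 759, 572, 393 and 551 in control, against 218, 621, 403 and 514 in the MET KO + EGFRi arm, so only day 0 stood apart. The antagonist Mnt had a difference of 0.48 and the glucose-responsive factor Mlxipl of -0.43. Zbtb17, Mnt and Mycl had changes after TCPOBOP of -0.46, -0.42 and -0.34, none called.

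Of the 16 MYC target genes all were measured and 1 was called, for the change after TCPOBOP. The transferrin receptor gene Tfrc rose, with 902, 1241, 1897 and 1917 in control, against 595, 1280, 1823 and 1820 in the MET KO + EGFRi arm (log2 change 1.09, standard error 0.17, limma adjusted p = 0.0436). It was higher than day 0 in 6 of 6 later arrays. The call was lost in all 8 fits that left out 1 array (adjusted p from 0.0889 to 0.307) and held in 7 of 12 other settings. The mean of its probe sets gave 0.39. Rrs1, a ribosome assembly gene, had a log2 change of -0.998 (adjusted p = 0.154) and Nme1 0.57. Rrs1, Nop58 and the spermidine synthase gene Srm had differences between the arms of 0.72, 0.36 and 0.24. The list's median was 0.11 between the arms and 0.07 over time.

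Upstream of the members, 18 of 20 listed genes were measured, with 0 called between the arms and 1 over time. That gene was Cyp2b10, the classical target of CAR, which rose by 6.38 on the log2 scale (limma, adjusted p = 1.37e-06) to similar signals in both arms. Nr1i3, which encodes CAR, had a log2 difference between the arms of -0.89 (limma, adjusted p = 0.131), and it was called when either array of day 5 was left out (-1.14, adjusted p = 0.0336 and 0.0356). Those fits compare the arms on the same days 0, 1 and 2 and are not separate checks. They leave out the day with the closest signals, 1887 in control and 1709 in MET KO + EGFRi. Nr1i3 was called in these 2 of 8 fits that left out 1 array and in 0 of 12 other settings (limma, adjusted p from 0.0863 to 0.288). The immediate early gene Junb had 264, 224, 165 and 394 in control, against 1711, 592, 175 and 299 in the MET KO + EGFRi arm, and Fosl1 306, 78.1, 150 and 287 and 265, 611, 548 and 300. They had differences of 0.83 and 0.89, neither called, and stood apart from control on days 0 and 1 (Junb) and days 1 and 2 (Fosl1). The mitotic kinase gene Cdk1 had a change after TCPOBOP of 1.89 (limma, adjusted p = 0.11), and Junb of -1.13. Cdk1 had 95, 784, 1421 and 317 in control, against 88.5, 348, 383 and 450 in the MET KO + EGFRi arm. Its day 0 values lie near the pseudocount of 71 and under the filter signal, which its later arrays bring it past. The size of its change thus depends on the pseudocount (1.25 to 2.52 over 11 other settings).

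The genes whose log2 values over the 8 arrays were most like those of Ccnd1 were Catsperd, Dnajc4, Gsta4, Kmt5a and Cercam, with Pearson's r from 0.96 to 0.98 and Spearman's rho from 0.81 to 0.98. The histone methyltransferase gene Kmt5a had 1150, 1568, 1817 and 1290 in control, against 500, 838, 1126 and 1075 in the MET KO + EGFRi arm. The glutathione transferase gene Gsta4 had 2009, 4536, 7790 and 4629 and 241, 1028, 2077 and 2879. Both were lower in MET KO + EGFRi on every day and, like Ccnd1, lowest there at day 0. This likeness follows largely from their choice by correlation with Ccnd1 over these same arrays. Gsta4 was called between the arms (log2 difference -1.84, limma adjusted p = 0.0428) and Kmt5a was not (-0.71, adjusted p = 0.145). These differences are part of the pattern they were chosen for and are no separate support for that of Ccnd1. By Spearman's rho 2 of these 5 genes, Dnajc4 and Kmt5a, were again among the first 5. The genes most like Myc were Akr1a1, Trdmt1, Psma3, Ctnnbip1 and Ywhab (Pearson's r from 0.94 to 0.98), of which Akr1a1 and Ywhab were again among the first 5 by rho. Among the members themselves, Ccnd1 went most closely with Ccnd3 (Pearson's r 0.60) and hardly with Myc (0.20). All these values share arrays and pools and were ranked over 12112 genes.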

How the data were processed

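Probe set intensity values, deposited as 1 signal for each array, were computed with MAS5 per the submitters' processing notes. They are linear, and the mean signal of each array, trimmed by 2 percent at each end, is 500. The MAS5 version and detection calls are not given in the sources used here. Per the labels' protocols each array used 6 µg of pooled liver RNA.

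After 64 control probe sets were left out, log2(signal + 71) was taken, 71 being the lower quartile of all values. Each gene was represented by its brightest probe set, by mean log2, and kept at a mean log2 of at least 8.236, which left 12112 of 18193 genes. Arm and day entered limma 3.58.1 (under R 4.3.3) as additive terms (3 residual degrees of freedom), or with an interaction (2), with a variance trend and Benjamini-Hochberg adjustment over all genes. The fits were tested on simulated data with independent normal noise at each gene's fitted spread, which is simpler than real arrays. Of the calls there, 6.41 percent (arm), 7.55 percent (days) and 10 percent (interaction) were false, at the same adjusted p threshold of 0.05. Single days have no replicate and no test.

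The members and gene lists were chosen with earlier results of these data known. All members were named, with the called genes of each list and up to 3 with the largest difference between arms and over time. The 5 genes most correlated with Ccnd1 or Myc were also named. Other settings changed the pseudocount, filter, probe set rule, scaling, variance model and arrays.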

Additional observations from a re-analysis of the deposited data

How the results depend on the processing

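No member was called in any of the 3 limma comparisons under any setting tried, among them the fits that left out 1 array. Over all genes, the arm comparison called 20 to 57 genes when 1 array was left out, 28 with no filter and 32 across all probe sets with no filter, a setting added after seeing the data. The comparison of days called 4 to 49 genes when 1 array was left out, 26 with no filter, 35 with the mean of probe sets, 34 without the trend and 13 across all probe sets with no filter. The interaction could not be fitted without a day 0 array.

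The counts of members at least 2-fold apart depend on Myc, which misses the filter without a pseudocount and at the upper quartile, and is compressed by the larger pseudocount. In each of these 3 settings there was 1 at day 0 and 0 at day 5 between the arms. Against day 0 there were 1 and 1 in MET KO + EGFRi at days 2 and 5, and in control 0 at days 1 and 5, and 0 at day 2 in the first 2 settings. With no filter there were 2 in control at days 1 and 2 and 2 in MET KO + EGFRi at day 1. Across filtered probe sets there were 2 between the arms at day 1, 1 at day 2, and 2 in control at day 1. Across all probe sets there were 2 and 1 between the arms at days 1 and 2, 3 and 2 in control at days 1 and 2, and 2, 4 and 4 in MET KO + EGFRi at days 1, 2 and 5.

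Among the members, the values whose sign turned were all uncalled. The median of the CDK inhibitors over time also turned, from 0.31 to -0.18 with no filter. Cdk6 between the arms was 5.19e-05 with the mean of probe sets and between -0.15 and 0.14 when 1 array was left out. Cdk4 between the arms ran from -0.0434 to 0.0589 and E2f1 from -0.43 to 0.0771 when 1 array was left out. Over time, Ccnd3 was -0.0066 with the mean of probe sets. Ccne1 over time was 0.00113 with the median as pseudocount, 0.13 with the mean of probe sets, 0.0384 with quantile normalization, 0.0385 with equal array medians, and -0.0539 to 0.0519 when 1 array was left out. Ccne2 ran from -0.0251 to 0.16 and Cdk2 from -0.17 to 0.0219. In the interaction, the mean of probe sets gave -0.19 for Ccne1 and turned Cdk4 from -0.25 to 0.43. When 1 array was left out it ran from -0.0871 to 0.34 for Cdk6, -0.14 to 0.20 for Cdk2 and -0.33 to 0.44 for E2f1. No paired analysis was possible because the labels number no replicates that groups share, beyond the match of the arms by day that the additive fit already makes.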

Other observations

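The probe sets of the members that lie under the filter give a sense of the noise. Of the 28, 12 did not pass. The Ccnd2 probe set 1416123_at read 64.1, 82.5, 2.7 and 33.2 in control, against 13, 2.7, 59.7 and 9.5 in the MET KO + EGFRi arm, while the strongest Ccnd2 probe set read above 700 in all arrays. Its ratio of MET KO + EGFRi to control was 0.03 at day 1 and 22.1 at day 2, so large ratios at these signals came from values of a few units. The ERK phosphatase gene Dusp6 had 769, 1413, 872 and 705 in control, against 267, 467, 731 and 1082 in the MET KO + EGFRi arm. Like Ccnd1, it was lowest in MET KO + EGFRi at day 0 and higher there on each later day, and unlike the strongest Ccnd1 probe set it was above control at day 5. The receptor gene Erbb3 had 2086, 4251, 4711 and 4761 in control, against 3745, 4645, 3796 and 4301 in the MET KO + EGFRi arm, a difference between arms that was largest at day 0. Dusp6, Erbb3 and the Ccnd2 probe set were picked after their values were seen, and neither gene was called in limma.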
